A study of Mus musculus with 12 samples.

Results

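The genes that flank the targeted Sox7 locus were read in mouse embryonic stem (ES) cells by 132 array probes with 95 gene names, of 55681 probes with 34836 gene names in all. They are the probes placed by the array's own annotation, on the mm9 mouse genome, wholly between positions 61000000 and 68000000 of chromosome 14, around a Sox7 probe at chr14:64569419-64569478. Sox7 itself, 4 further gene names near it and 131 probes for long intergenic RNAs were left out and are not analysed here. Members were chosen by position and not by their values, though with earlier results of these data known. No mm9 gene annotation was used, so exons and untranslated regions are not given. A RefSeq symbol matched 72 of the 95 names, 65 of them protein-coding genes.

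RNA of 4 groups was hybridized to 12 one-colour Agilent arrays, 3 for each group. All cells carried Gata6GR, a Gata6 protein that is switched on by dexamethasone (Dex). The groups were Sox7 (+/-) and Sox7 (-/-) cells, each without Dex (called ES cells) and with Dex (called XEN-like cells, for their likeness to extraembryonic endoderm), all labelled day 4. By the study's methods both genotypes carry a selection cassette in place of the Sox7 coding exons, on 1 allele in Sox7 (+/-) and on both in Sox7 (-/-). The Sox7 (-/-) cells were derived from a Sox7 (+/-) clone by strong puromycin selection for gene conversion, so each genotype was 1 line and the comparison is between these lines. Whether the 3 arrays of a group are separate cultures is not stated, and p-values then measure the spread between these samples, which may be technical.

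Sox7 encodes a transcription factor of the SoxF group, which is made in primitive endoderm and in endothelium. A drug-selection cassette with its own promoter can, as a matter of general knowledge, change the RNA of genes beside it. Gene conversion can also replace a long stretch of the homologous chromosome. The comparison by distance from Sox7 therefore asks whether the genes nearest to the changed allele differ between the genotypes more than those farther away. No untargeted line was on the arrays, so an effect of targeting that both lines share cannot show here. A neighbour raised on each changed allele would differ by no more than 2-fold between these lines, so a threshold over 2-fold could miss it.

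Signals are given as a percentage of the 75th percentile of their array, and differences as log2 of Sox7 (-/-) over Sox7 (+/-). The test was limma's, run on every probe whose spots were well above background throughout the 3 arrays of some group, and a probe was called at an adjusted p under 0.05 and a difference over 2-fold. Of the members, 70 probes with 49 gene names could be tested. Another 62 probes could not, and 45 of these were above background on no array.

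The arrays lay on 2 slides. The smaller one held all 3 ES arrays of Sox7 (-/-) together with replicate 1 of its XEN-like arrays, so in ES cells slide and genotype can be separated only through the Sox7 (-/-) XEN-like arrays. The cells were checked against marker genes. The summed signal of 7 ES cell markers lay between 21621% and 22785% in Sox7 (+/-) and between 45509% and 48755% in Sox7 (-/-) ES cells, and between 5236% and 5740% and between 7341% and 8001% in the XEN-like cells. Nanog and Sox2 were above background on no XEN-like array. All 7 extraembryonic endoderm markers were well above background on every array, with sums between 55979% and 57048% and between 39321% and 44122% in Sox7 (+/-) and Sox7 (-/-) ES cells. In XEN-like cells these sums lay between 171549% and 191119% and between 159033% and 163927%. In ES cells the sums of other markers were low beside these. The mesoderm sum was 146% to 154% in Sox7 (+/-) and 29.9% to 35.9% in Sox7 (-/-) ES cells. The trophectoderm sum was 383% to 407% and 170% to 176%, and the neural sum 312% to 353% and 620% to 714%. The fibroblast sum lay between 379% and 448% over both genotypes. In XEN-like cells the 4 mesoderm markers were above background on no array. There the trophectoderm sum lay between 172% and 258% in Sox7 (+/-) and between 500% and 578% in Sox7 (-/-). The neural sum lay between 258% and 323% in Sox7 (+/-) and between 129% and 151% in Sox7 (-/-). The fibroblast sum lay between 38.6% and 49.4% over both genotypes. The ES cell marker sums thus differed between the genotypes. So did the sums of extraembryonic endoderm, trophectoderm and neural markers in both states and of mesoderm markers without Dex. The part of these differences in the results below was not tested. In such bulk samples fewer cells of a type and less RNA per cell cannot be told apart.

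The Sox7 probe gave 224%, 218% and 229% in Sox7 (+/-) ES cells and 490%, 495% and 688% in Sox7 (+/-) XEN-like cells. On the 6 Sox7 (-/-) arrays it lay between 1.48% and 2.57% and did not clear background. By the bound this background sets, the signal in Sox7 (+/-) exceeded that in Sox7 (-/-) at least 24.6-fold in ES cells (adjusted p = 1.3e-08 from limma) and at least 72.6-fold in XEN-like cells (adjusted p = 7.3e-09). The labels of all 12 arrays thus fit the targeted gene.

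Without Dex, the share of members that differed between the genotypes was close to that of all probes, and none of those within 0.5 Mb of Sox7 was called. Over all members 5 of 70 tested probes (7.14%) were called, beside 8.62% of all 25938 tested probes and 95 of the 891 tested probes elsewhere on chromosome 14. Of the 5, 1 was higher and 4 were lower in Sox7 (-/-) ES cells, beside 1.95% and 6.67% of all probes. The called probes were those of Dleu7, Fam124a and Clu and both probes of Stmn4. Among probes above background on each of the 6 ES arrays, 3 of 60 members (5%) were called beside 5.43% of all such probes. At an adjusted p under 0.05 and any size, 19 members were higher and 12 lower, 44.3% in all beside 45.1% of all probes (28.2% higher and 16.9% lower). With the slide as a block 0 members were higher and 5 lower at any size (7.14%, beside 12.3% of all probes), so the smaller ES differences given below rest on the fit without it. With spike-in scaling, where the median of all probes was -0.06, the split was 6 higher and 13 lower. The median difference was 0.05 for the members and 0.10 for all probes, and the median absolute difference was 0.36 and 0.34.

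With Dex, 9 of the 70 probes (12.9%) were called between the genotypes, beside 7.5% of all probes and 59 of the 891 elsewhere on chromosome 14. Of the 9, 5 were higher and 4 lower in Sox7 (-/-) XEN-like cells, beside 3.86% and 3.64% of all probes. The count was 7 within the larger slide and lay between 6 (without Sox7 (-/-) XEN-like replicate 2) and 12 (without Sox7 (+/-) XEN-like replicate 2) when single arrays were left out. They included both probes of Tdh, the probes of Clu, Fam124a, Spata13 and AK040829, and 1 each of the probes of Tnfrsf19 and of Zfp395. Of these 9 probes, 4 were well above background on all 6 arrays, and 5 were not. Among probes above background on each of the 6 XEN-like arrays, 4 of 51 members (7.84%) were called beside 5.24% of all such probes. At any size 15 members were higher and 15 lower, 42.9% beside 34.5% of all probes (19.1% higher and 15.4% lower). These splits turned on the scaling, with 20 higher and 8 lower by spike-in controls and 29 and 3 in the deposited table, whose medians over all probes were 0.25 and 0.34. The median difference was 0.00 for the members and for all probes, and the median absolute difference was 0.43 and 0.28.

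The rank correlation of the genotype difference with distance was weak in both states, but with Dex the medians were larger under 1 Mb than farther out. Within 0.5 Mb of Sox7, 8 probes of 6 genes could be tested, and the call was reached by 0 of them without Dex and by 2 with Dex, both of Tdh. From 0.5 to 1 Mb it was reached by 0 of 6 probes in either state, and from 1 to 2 Mb by 2 of 16 in each. Beyond 2 Mb it was reached by 3 of 40 probes without Dex and by 5 with Dex. The median absolute difference in these classes was 0.28, 0.26, 0.40 and 0.36 without Dex and 0.58, 0.56, 0.21 and 0.43 with Dex. Over all probes it was 0.34 and 0.28. At an adjusted p under 0.05 and any size (limma), 2, 2, 10 and 17 probes passed without Dex, beside 45.1% of all probes. With Dex 4 of 8, 4 of 6, 4 of 16 and 18 of 40 passed, beside 34.5%. The classes under 1 Mb hold few probes. Across the 70 probes, which are not independent replicates and share the arrays, the rank correlation of absolute difference with distance was -0.02 without Dex and -0.09 with Dex.

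**Figure D1:**
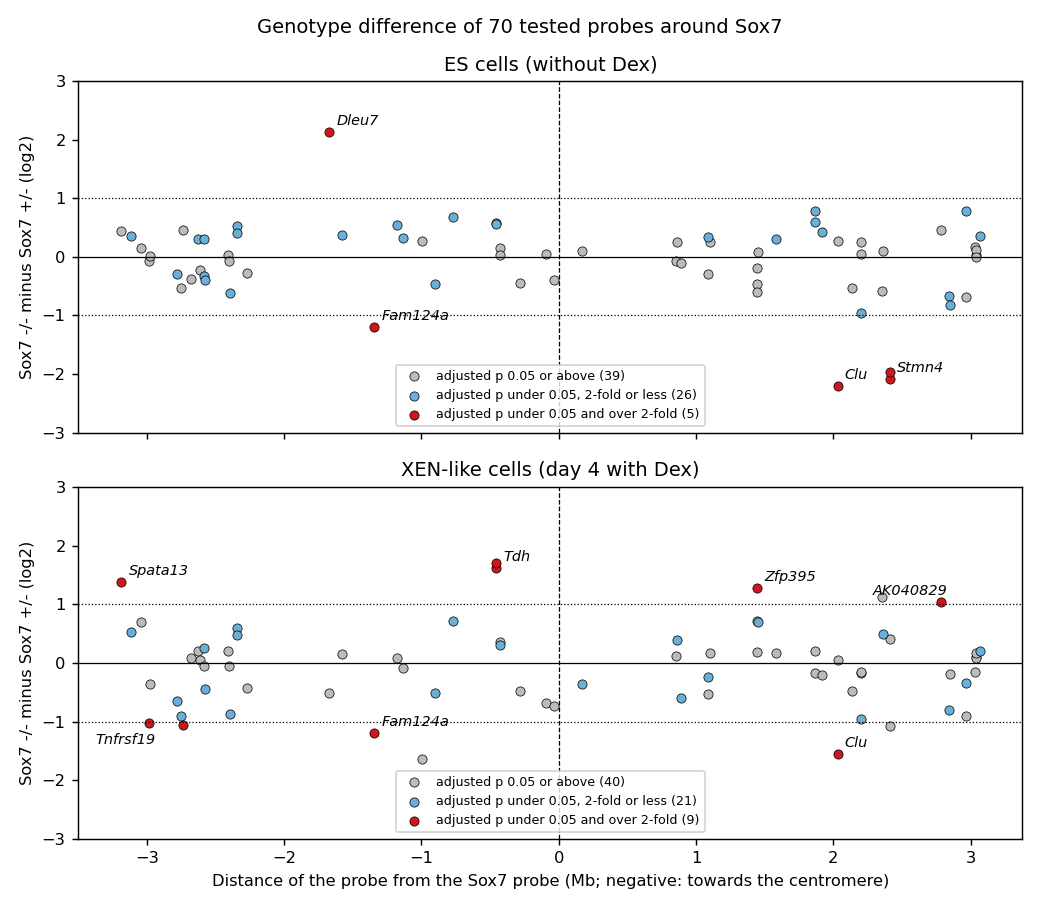
The log2 difference between Sox7 (-/-) and Sox7 (+/-) cells of each of the 70 tested probes is plotted against its distance in Mb from the Sox7 probe (dashed line; Sox7 is not drawn), in ES cells (top) and XEN-like cells (bottom). Colours give the outcome of the limma test, dotted lines mark 2-fold, and called probes lie from 0.46 Mb outwards, with none among the probes next to Sox7.

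The nearest gene towards the centromere was Pinx1, which encodes an inhibitor of telomerase, with a probe 31.0 kb from that of Sox7 (chr14:64538435-64538494). Its signal was 896%, 887% and 1437% in Sox7 (+/-) ES cells and 810%, 645% and 961% in Sox7 (-/-) ES cells. In XEN-like cells it was 1510%, 1323% and 4380% in Sox7 (+/-) and 1125%, 1400% and 1198% in Sox7 (-/-). The groups overlapped in both states, and 1 array, Sox7 (+/-) XEN-like replicate 3, stood apart. The difference was -0.40 in ES cells (95% interval -1.28 to 0.49, adjusted p = 0.45 from limma) and -0.74 in XEN-like cells (-1.62 to 0.15, adjusted p = 0.18). Without that array the XEN-like difference was -0.19 (adjusted p = 0.55).

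The next genes on this side stayed under 2-fold in both states, the nearer pair being low in signal. The transcript 4921532D01Rik, 91.8 kb away, lay between 13.1% and 25.2% on all 6 ES arrays, with a difference of 0.05 (adjusted p = 0.90 from limma). In XEN-like cells it was 34.2%, 24.4% and 33.6% in Sox7 (+/-) and 18.2%, 17.9% and 20.8% in Sox7 (-/-), groups that did not overlap but whose difference of -0.68 missed the threshold (adjusted p = 0.060). Xkr6, a membrane protein of the XK family, 285 kb away, was 35.6%, 32.7% and 40.8% in Sox7 (+/-) and 26.5%, 24.7% and 28.4% in Sox7 (-/-) ES cells. Its difference was -0.45 in ES and -0.48 in XEN-like cells, with an adjusted p of 0.055 in each (limma) and intervals of -0.83 to -0.07 and -0.86 to -0.09. Mtmr9, a myotubularin-related protein without phosphatase activity, 427 kb away, differed by 0.03 in ES cells (-0.21 to 0.26, adjusted p = 0.86) and by 0.30 in XEN-like cells (adjusted p = 0.048).

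Tdh was the exception among the near genes. It encodes threonine dehydrogenase, a mitochondrial enzyme that breaks down threonine and is known for its high level in mouse ES cells, and its brightest probe lies 458 kb from Sox7 (chr14:64111327-64111386). The signal was 15375%, 16204% and 13700% in Sox7 (+/-) ES cells and 21945%, 23577% and 22022% in Sox7 (-/-) ES cells. In XEN-like cells it was 991%, 1052% and 1503% in Sox7 (+/-) and 3906%, 3466% and 3345% in Sox7 (-/-). The Sox7 (-/-) arrays were above all Sox7 (+/-) arrays in both states. The difference was 0.58 in ES cells (SE 0.14, adjusted p = 0.0088 from limma) and 1.62, or 3.07-fold, in XEN-like cells (SE 0.14, adjusted p = 3.0e-05). The second probe, which overlaps the first, gave 0.57 and 1.70. With the slide as a block the ES difference was 0.38 (adjusted p = 0.39), and with quantile normalization it was 0.30 (adjusted p = 0.081). Among the arrays of the larger slide alone, the XEN-like difference was 1.55. The sums of the ES cell markers were also higher in Sox7 (-/-) cells in both states. With Dex that sum was mostly Klf4 (mean 4887% in Sox7 (+/-) and 6256% in Sox7 (-/-)). There Pou5f1, Zfp42 and Esrrb were higher in Sox7 (-/-) cells too, while Tdgf1 was lower (229% and 111%). The part of these markers in the difference of Tdh was not tested.

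Neil2, a DNA glycosylase of base excision repair, 768 kb away, closed the set of 6 on this side. It was 213%, 221% and 211% in Sox7 (+/-) and 356%, 346% and 338% in Sox7 (-/-) ES cells, and 114%, 90.1% and 56.0% and then 121%, 152% and 137% in XEN-like cells. Sox7 (-/-) was higher without overlap in both states, by 0.69 (adjusted p = 0.022 from limma) and 0.71 (adjusted p = 0.025), under the 2-fold limit. In ES cells the threshold was missed with spike-in scaling (0.53, adjusted p = 0.19), with the slide as a block (0.95, adjusted p = 0.14), and without ES replicates 1 or 3 of Sox7 (+/-) or 1 or 2 of Sox7 (-/-) (adjusted p from 0.055 to 0.059). With Dex it was missed without Sox7 (-/-) XEN-like replicate 2 (0.63, adjusted p = 0.082) or replicate 3 (0.70, adjusted p = 0.060), and the difference was 0.42 (adjusted p = 0.020) without Sox7 (+/-) XEN-like replicate 3.

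Towards the telomere 9 of the 10 probes within 0.5 Mb could not be tested. These included the probes of 4930578I06Rik, Gm10867, Rp1l1, Prss55, Prss51, Prss52 and 5330427O13Rik, all dim, with at most 12.7% on any array. A change of these genes below the array's background was not detectable. The nearest tested gene on this side was Msra, a methionine sulfoxide reductase that repairs oxidized proteins, 172 kb from Sox7 (chr14:64741485-64741544). It was 213%, 213% and 214% in Sox7 (+/-) and 214%, 251% and 226% in Sox7 (-/-) ES cells, and 283%, 276% and 283% against 221%, 223% and 216% in XEN-like cells. The genotypes differed by 0.11 in ES cells (-0.04 to 0.26, adjusted p = 0.21 from limma), and with Dex Msra was lower in Sox7 (-/-) by a log2 difference of -0.35 (adjusted p = 0.0033). With spike-in scaling, which moved the median of all probes to 0.25, this difference was -0.11 (adjusted p = 0.53), and in the deposited table, which is not scaled between arrays and had a median of 0.34, it was 0.05 (adjusted p = 0.82).

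Farther out, Kif13b, a kinesin motor 856 kb away, was dim, and differed by -0.07 and 0.12 (adjusted p = 0.87 and 0.77 from limma). Hmbox1, a homeobox protein that binds telomeric repeats, 862 kb away, was 127%, 121% and 127% in Sox7 (+/-) and 146%, 187% and 160% in Sox7 (-/-) XEN-like cells, a difference of 0.39 (adjusted p = 0.047), while its dimmer probe gave -0.61 (adjusted p = 0.017), so that its probes disagree. Ints9, a subunit of the Integrator complex that cleaves nascent RNA, was higher in Sox7 (-/-) ES cells by 0.34 (adjusted p = 0.0081, and 0.30 with spike-in scaling) and lower in Sox7 (-/-) XEN-like cells by a log2 difference of -0.24 (adjusted p = 0.050), the latter 0.01 with spike-in scaling. Extl3, a glycosyltransferase of heparan sulfate synthesis, differed by 0.25 and 0.17 (adjusted p = 0.084 and 0.24). These 4 genes stayed under 2-fold in both states.

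Zfp395, a zinc finger protein 1.45 Mb away, was the farthest of the 6 telomeric genes. Its brightest probe was 36.0%, 39.9% and 35.4% in Sox7 (+/-) and 38.9%, 42.2% and 37.4% in Sox7 (-/-) ES cells, which overlapped. In XEN-like cells it was 70.1%, 73.5% and 58.3% against 105%, 111% and 112%, which did not. The difference was 0.09 without Dex (adjusted p = 0.47 from limma) and 0.71 with Dex (adjusted p = 4.5e-04). A dimmer probe of the gene was above background with Dex in Sox7 (-/-) cells only, where its signal was at least 1.18-fold higher (adjusted p = 0.033). This call was lost without any 1 of 5 of the 6 XEN-like arrays, all but Sox7 (+/-) replicate 2 (fitted difference 1.16 to 1.33, adjusted p from 0.066 to 0.085), and with the slide block (1.33, adjusted p = 0.066), normexp background correction (0.12, adjusted p = 0.35) and the deposited table (0.60, adjusted p = 0.0047). The other 2 dim probes differed by 0.19 and 0.72 (adjusted p = 0.80 and 0.19).

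**Figure D2:**
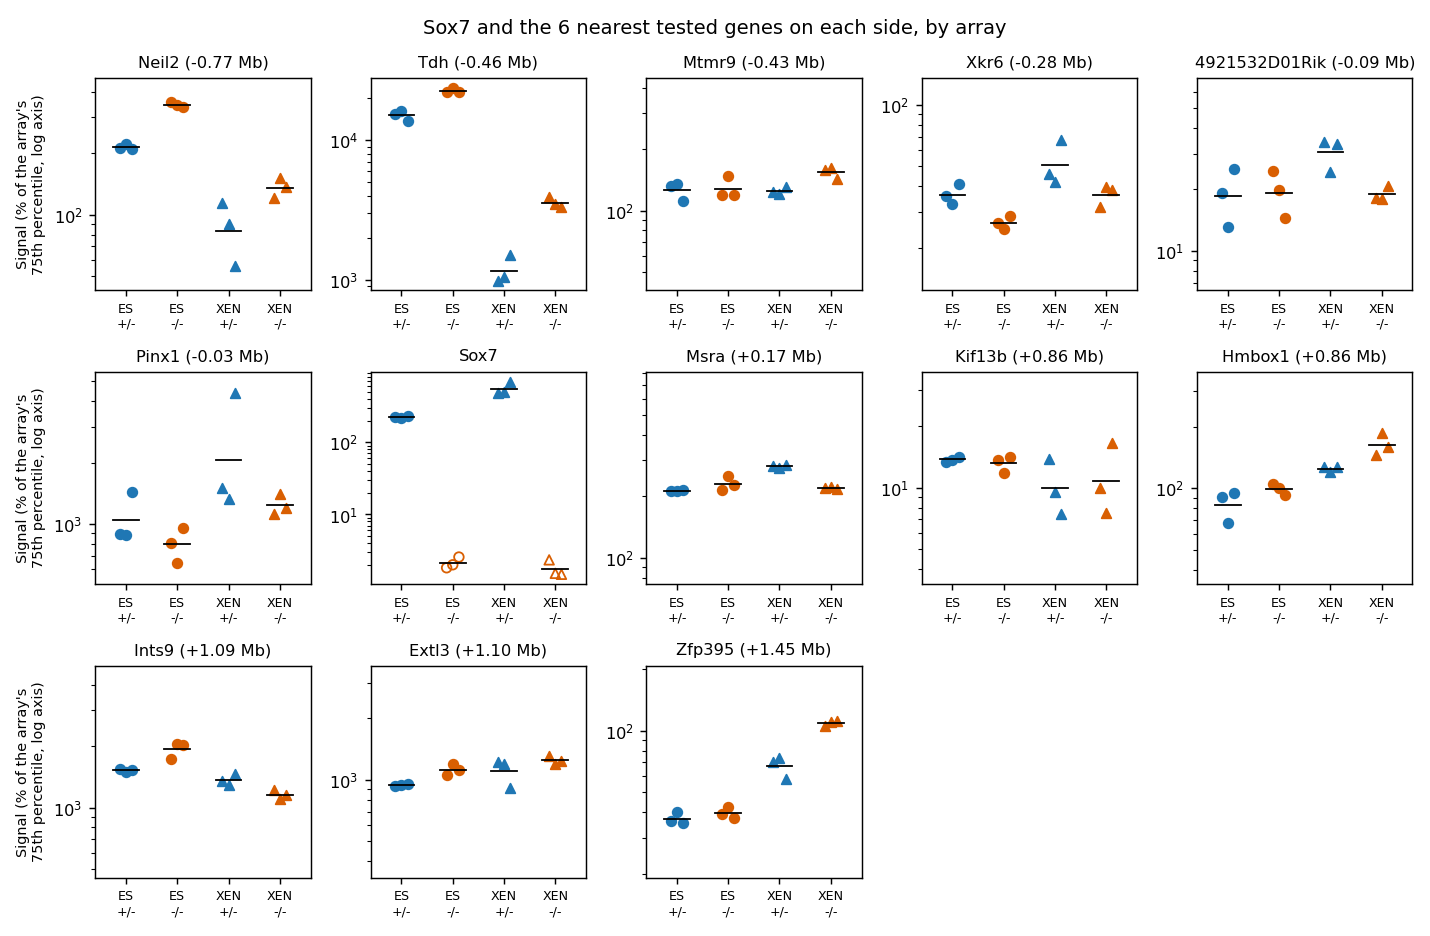
Signal of Sox7 and of the 6 nearest tested genes on each side, as a percentage of the 75th percentile of the array on log axes that differ between panels, with 1 point per array, a bar at the mean of the log values, and circles for ES and triangles for XEN-like cells. Blue is Sox7 (+/-) and orange Sox7 (-/-), and open symbols mark groups in which no array was well above background, which here are the Sox7 (-/-) groups of Sox7 alone.

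Among members well above background on all 12 arrays, Clu had the largest genotype difference in ES cells and Tdh in XEN-like cells. Clu encodes clusterin, a secreted chaperone, and its probe is 2.03 Mb from Sox7 (chr14:66600325-66600382). It was 2987%, 3258% and 3276% in Sox7 (+/-) and 661%, 740% and 661% in Sox7 (-/-) ES cells, and 9706%, 9387% and 6464% against 3034%, 2705% and 2788% in XEN-like cells. The groups were far apart in both states, with differences of -2.21 (SE 0.14, adjusted p = 1.9e-06 from limma) and -1.56 (SE 0.14, adjusted p = 3.0e-05). These correspond to 4.62-fold and 2.95-fold lower signal in Sox7 (-/-) cells, and with the slide as a block the differences were -2.35 and -1.61. The extraembryonic endoderm marker sums were also lower in Sox7 (-/-) cells in both states, but Lama1 and Lamb1 made up most of them. Without Dex, Foxa2, Dab2, Lama1, Lamb1 and Col4a1 were lower in Sox7 (-/-) cells (Dab2 mean 1231% in Sox7 (+/-) and 825% in Sox7 (-/-)). Sox17 and Pdgfra were higher in Sox7 (-/-) cells in both states. The rise of Sox17 was slight (means 1054% and 1157% without Dex, 5834% and 6150% with Dex). With Dex, Lama1 and Lamb1 were lower, and Foxa2 and Col4a1 were nearly equal. Dab2 was higher with Dex (mean 2284% in Sox7 (+/-) and 4811% in Sox7 (-/-)). These markers thus did not move as a set, and their part in the difference of Clu was not tested.

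Fam124a, 1.34 Mb away (chr14:63225391-63225450), was lower in Sox7 (-/-) cells in both states but dim. It was 17.3%, 17.9% and 15.9% in Sox7 (+/-) ES cells and 8.51%, 6.39% and 7.42%, not well above background, in Sox7 (-/-) ES cells, at least 1.87-fold higher in the former (adjusted p = 9.9e-05 from limma). In XEN-like cells it was 24.9%, 26.8% and 19.2% against 10.3%, 9.63% and 10.8%, all well above background, a difference of -1.19 (adjusted p = 1.6e-04). In the deposited table, which is not corrected for background, this difference was -0.33 (adjusted p = 0.12). With normexp background correction the calls of Fam124a in both states were lost. The ES call was also lost in the deposited table, and the XEN-like call with spike-in scaling.

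Dleu7 and Stmn4 were called in ES cells alone. Dleu7, 1.67 Mb away (chr14:62895485-62895544), was 13.9%, 18.7% and 13.0% in Sox7 (-/-) ES cells and not well above background on any other array, at 3.28%, 6.47% and 1.89% in Sox7 (+/-) ES cells and at most 2.69% in XEN-like cells. It was at least 2.18-fold higher in Sox7 (-/-) ES cells (adjusted p = 0.0010 from limma). The call of Dleu7 was lost with normexp background correction and in the deposited table. Stmn4, a stathmin that binds tubulin, 2.41 Mb away (chr14:66980426-66980485), was 64.4%, 59.4% and 61.6% in Sox7 (+/-) and 14.1%, 13.8% and 16.1% in Sox7 (-/-) ES cells. Its difference was -2.08 (adjusted p = 0.0023), and its second probe, which overlaps the first, gave -1.97 (adjusted p = 0.0054). With the slide as a block the adjusted p of both genes missed the threshold, at 0.11 for Dleu7 (difference 1.82) and 0.055 for Stmn4 (-2.56).

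The calls of Spata13, Tnfrsf19 and AK040829 with Dex rested on dim signals. Spata13, a guanine nucleotide exchange factor, 3.19 Mb away, gave 6.27%, 4.46% and 2.65% in Sox7 (+/-) XEN-like cells, where it did not clear background. With Dex the Sox7 (-/-) arrays gave 12.01%, 10.1% and 10.8%, which is at the level of the background bound itself, so no fold is given (adjusted p = 0.0027 from limma). The difference of 1.38 was 1.32 within the larger slide, with an adjusted p of 0.11. Tnfrsf19, a receptor of the tumour necrosis factor family, and AK040829, a transcript named by its sequence record, were not well above background on any XEN-like array. Their fitted differences of -1.02 and 1.03 (adjusted p = 0.0017 and 0.0015) are therefore given with no fold. That of Tnfrsf19 was -0.82 (adjusted p = 0.0026) without Sox7 (+/-) XEN-like replicate 2, -0.91 (adjusted p = 0.0077) without Sox7 (-/-) XEN-like replicate 3 and -1.06 (adjusted p = 0.086) within the larger slide. That of AK040829 was 0.94 (adjusted p = 0.0060) without Sox7 (+/-) XEN-like replicate 1 and 0.97 (adjusted p = 0.0080) without Sox7 (-/-) XEN-like replicate 2, under the 2-fold limit, and its sign turned with normexp background correction (-0.037, adjusted p = 0.73).

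**Figure D3:**
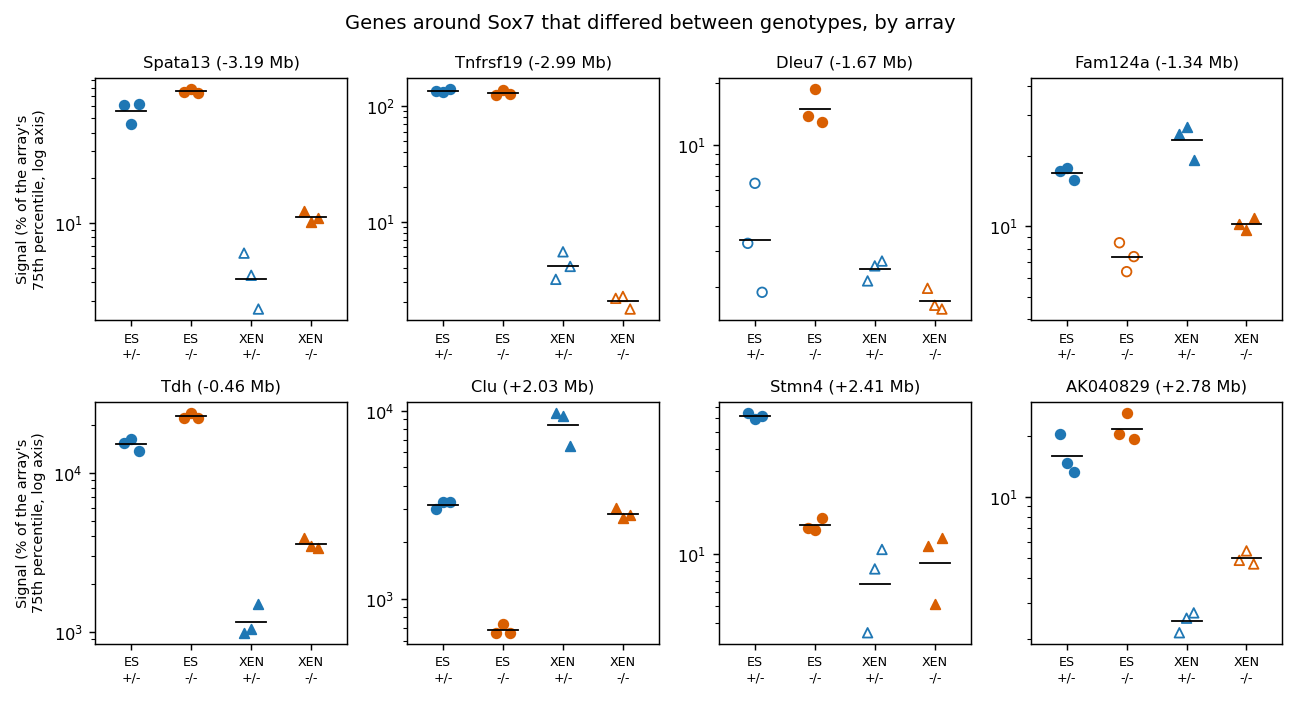
Signal on each array of the 8 genes whose brightest probe was called between the genotypes in ES or XEN-like cells, as a percentage of the 75th percentile on log axes that differ between panels, ordered by position with the distance from Sox7 in each title (negative towards the centromere). Points are arrays, bars the mean of the log values, colours and shapes the groups (blue Sox7 (+/-), orange Sox7 (-/-), circles ES, triangles XEN-like), and open symbols mark groups in which no array was well above background; Tdh and Clu are the genes with filled symbols in all 4 groups.

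Of the 8 genes whose brightest probe was called, 2 have exactly 1 entry in the RefSeq promoter table (assembly GRCm38.p6), Dleu7 and Fam124a, and these promoter stretches are shown as the regulatory sequence of genes that differed between the lines. They run from 250 bases before to 50 after the annotated start, 5′ to 3′ on the gene's strand. Capitals mark GATAA, the core letters of a GATA site, searched with ACAAT, core letters of a Sox site, on both strands. The Dleu7 sequence is chr14:62292930-62293229 on the minus strand, and that of Fam124a is chr14:62555487-62555786 on the plus strand.
Dleu7: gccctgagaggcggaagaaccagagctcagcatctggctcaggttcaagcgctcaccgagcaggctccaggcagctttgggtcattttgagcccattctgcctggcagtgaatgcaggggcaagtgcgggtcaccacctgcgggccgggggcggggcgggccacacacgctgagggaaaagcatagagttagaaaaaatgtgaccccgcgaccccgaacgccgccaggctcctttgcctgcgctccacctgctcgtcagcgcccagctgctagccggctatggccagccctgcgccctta
Fam124a: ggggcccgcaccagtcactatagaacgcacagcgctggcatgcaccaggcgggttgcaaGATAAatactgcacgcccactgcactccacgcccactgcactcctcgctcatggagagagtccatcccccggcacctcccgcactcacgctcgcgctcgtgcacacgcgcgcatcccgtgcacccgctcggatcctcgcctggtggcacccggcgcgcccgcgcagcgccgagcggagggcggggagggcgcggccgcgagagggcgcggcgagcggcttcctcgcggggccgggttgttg
GATAA occurs 1 time in the Fam124a sequence and 0 times in that of Dleu7, and is held by 25.41% of the 32851 promoters of the table. ACAAT occurs in neither, and is held by 31.02%. A match or its absence describes these letters in this window alone.

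Grouped by role, in lists drawn up with earlier results of these data known, the members did not move as 1 block. Of 10 tested genes of chromosome maintenance, telomeres and cell division, 6 were higher in Sox7 (-/-) ES cells at an adjusted p under 0.05 (limma), 0 were lower and 0 passed 2-fold, with a median difference of 0.37 beside 0.10 for all probes, of which 28.2% were higher and 45.1% passed in either direction. They include Pbk, a mitotic kinase, which was 169%, 194% and 150% in Sox7 (+/-) and 316%, 297% and 269% in Sox7 (-/-) ES cells (0.79, adjusted p = 0.0010). They also include Rnaseh2b, a subunit of ribonuclease H2 (0.38, adjusted p = 0.0011), and Ppp2r2a, a subunit of protein phosphatase 2A (0.36, adjusted p = 0.0010). The list was drawn broadly. It also holds Trim13 (0.40, adjusted p = 0.045), which is among the 6, and Dleu2 and Kif13b, which are not. With spike-in scaling 2 of the 10 were higher in ES cells and with the slide block 0, where the median difference of the list was 0.45 and that of Pbk 0.79 (adjusted p = 0.076). In XEN-like cells 4 of the 10 were higher and 0 lower, beside 19.1% and 15.4% of all probes, with a median of 0.18, and Pbk differed by -0.17 (adjusted p = 0.34). The list counts take the brightest probe of each gene, whereas the shares beside them are over all probes, dim ones included. By brightest probe, 16 of the 49 tested member genes were higher and 8 lower in ES cells at any size. In XEN-like cells 12 of the 49 were higher and 10 lower.

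The counts of the other lists stand beside 45.1% of all probes that passed at any size in ES cells and 34.5% in XEN-like cells. These counts too take the brightest probe of each gene. Of 4 tested genes of transcription and RNA processing, 3 were higher in Sox7 (-/-) ES cells and 2 were higher and 1 lower in XEN-like cells at any size, with 0 past 2-fold by the brightest probe. In ES cells this count of 3 was 0 by quantile normalization, spike-in scaling, the deposited table and the slide block. Kpna3, counted as higher in both states by its brightest probe (0.30 and 0.26), has probes that disagree. Its other probes gave -0.32 and -0.40 in ES cells (adjusted p = 0.026 and 0.023 from limma). In XEN-like cells they gave -0.06 and -0.45 (adjusted p = 0.70 and 0.018). Of 9 genes of metabolism and redox balance, 2 were higher and 0 lower in ES cells, and 3 were higher and 1 lower in XEN-like cells, Tdh alone past 2-fold. Of 3 tested genes for secreted and membrane proteins, Clu alone was lower in ES cells, and Clu and Tnfrsf19 in XEN-like cells. Of 7 neuronal and signalling genes, 2 were lower in ES cells and 1 in XEN-like cells, and 0 were higher in either. Ptk2b, a tyrosine kinase of this list, has probes that disagree, the brighter with differences of 0.05 and -0.15 and the dimmer with -0.96 and -0.96 (adjusted p = 3.9e-05 and 5.8e-05 from limma). The dimmer probe of Pnma2, also of this list, was higher in Sox7 (-/-) ES cells by 0.79 (adjusted p = 2.5e-04), while its brightest probe gave -0.69 (adjusted p = 0.26).

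Dex changed more members than the genotype did, as it did over all probes of the array. It called 15 of the 70 probes in Sox7 (+/-) cells (21.4%, beside 24.9% of all probes), 13 of them falls and 2 rises. In Sox7 (-/-) cells it called 20 (28.6%, beside 28.8%), 5 higher and 15 lower. Both lines called 14 of these probes, with 1 called in Sox7 (+/-) and 6 in Sox7 (-/-) cells alone. Falls made up most of the calls, whereas over all probes 11% were called higher and 14% lower in Sox7 (+/-) cells and 14.6% and 14.2% in Sox7 (-/-) cells.

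Among the brightest probes of each gene, the fitted fall was largest for Ephx2, the soluble epoxide hydrolase, which dropped from 921%, 926% and 915% to 5.31%, 5.96% and 17.0% in Sox7 (+/-) cells. In Sox7 (-/-) cells it dropped from 641%, 642% and 619% to 13.1%, 3.34% and 4.50%. In each XEN-like group 1 of 3 arrays was above background, so the log2 responses of -6.82 and -6.77 are near the floor (adjusted p = 1.2e-06 and 9.7e-07 from limma). Tnfrsf19 fell from between 124% and 139% in all 6 ES arrays to below background, at least 12.4-fold in Sox7 (+/-) and 17.0-fold in Sox7 (-/-) cells (adjusted p = 4.0e-09 and 8.5e-10), while its dimmer probe responded by -0.52 and -0.90 (adjusted p = 0.037 and 0.0020). Spata13 fell at least 5.11-fold in Sox7 (+/-) cells, to below background (adjusted p = 5.9e-07), and by 2.78 on the log2 scale in Sox7 (-/-) cells (adjusted p = 4.4e-06). Tdh fell by 3.70 and 2.66 on the log2 scale and Neil2 by 1.37 and 1.35. Clu rose in both lines, by 1.40 (adjusted p = 1.0e-05) and 2.05 (adjusted p = 4.6e-07), and Zfp395 by 0.85 (adjusted p = 2.6e-05) and 1.47 (adjusted p = 3.3e-07).

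Pnma2, 2.97 Mb away, has probes that disagree on the response to Dex. One fell from between 308% and 589% in ES cells to below background, at least 29.4-fold in Sox7 (+/-) and 73.3-fold in Sox7 (-/-) cells (adjusted p = 2.9e-11 and 1.3e-11 from limma). The other, brighter probe gave 767%, 720% and 1118% before and 1105%, 1149% and 4308% after Dex in Sox7 (+/-) cells, a response of 1.05 (adjusted p = 0.076). Its high array was again Sox7 (+/-) XEN-like replicate 3, as for Pinx1.

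The response to Dex itself differed between the lines for 6 of the 70 probes (8.57%, beside 9.79% of all probes), 3 with a higher and 3 with a lower response in Sox7 (-/-) cells, beside 6.62% and 3.17% of all probes. The fall of Tdh was smaller in Sox7 (-/-) cells, by 1.04 on the log2 scale (SE 0.20, adjusted p = 0.0047 from limma), and by 1.13 for its second probe. For the first probe the difference fell under 2-fold, to between 0.92 and 0.99, without Sox7 (+/-) ES replicate 2, Sox7 (+/-) XEN-like replicates 1 or 2 or Sox7 (-/-) XEN-like replicate 1 (adjusted p from 0.0091 to 0.015), whereas the second probe stayed called without any single array. Within 0.5 Mb of Sox7, the difference in the response of Msra was -0.46 (adjusted p = 0.0060), under 2-fold, and that of Pinx1 was -0.34 (95% interval -1.60 to 0.91, adjusted p = 0.69).

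**Figure D4:**
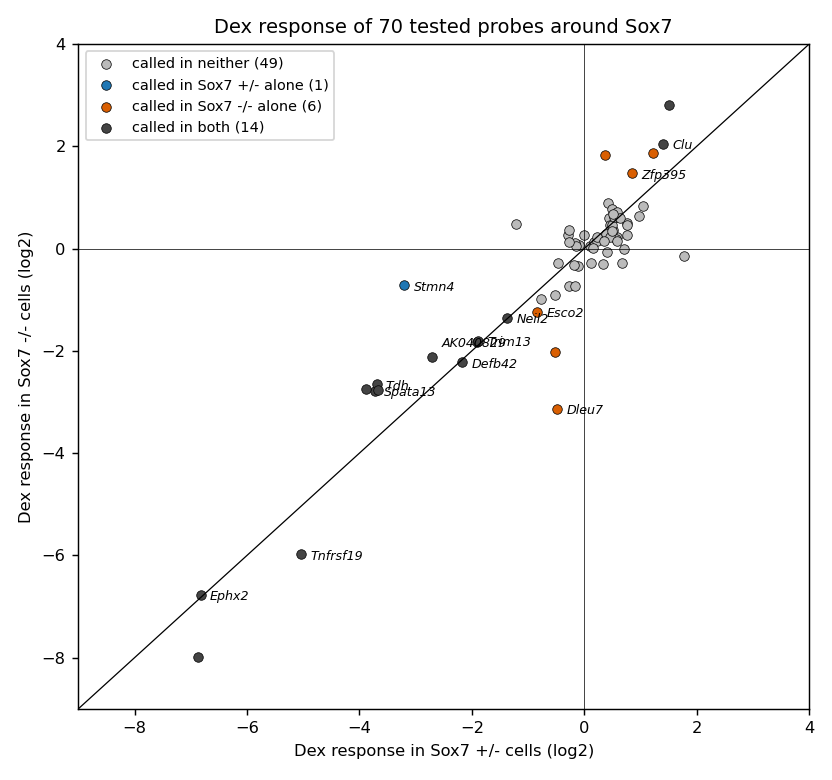
The response to Dex (log2 of XEN-like over ES signal) of the 70 tested probes in Sox7 (+/-) cells on the horizontal and in Sox7 (-/-) cells on the vertical axis, with the line of equal response and colours for the line or lines in which a probe was called. Brightest probes of called genes are named; 14 probes were called in both lines, 1 in Sox7 (+/-) and 6 in Sox7 (-/-) cells alone.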

How the data were processed

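The RNA of 12 samples was read on 12 Agilent mouse arrays with 1 colour. The scanner files that the authors deposited were made with Agilent Feature Extraction 10.7.3.1, by the submitters' processing notes. The processed signal used here is a deposited intensity from which background and spatial trend were removed, with no scaling across arrays. A deposited table of intensity values differed from the raw mean brightness by at most 0.498%, and so holds uncorrected values. A reference genome was not used here.

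Processed signals were divided by the 75th percentile of their array (252.3 to 415.9 intensity units) and log2-transformed. Spots flagged as outliers (139 to 190 of 59305 per array) were left out, and spots of a probe were averaged. On each array 41.7% to 52.3% of spots cleared background and 0 were saturated, and the number of arrays limits the precision. All 12 arrays were fitted with 1 mean per group in limma 3.58.1 under R 4.3.3, and Benjamini-Hochberg adjustment ran over all 25938 tested probes. A group in which a probe was not well above background on any array was replaced, for a fold given as a bound, by the lowest well-above signal of its arrays. Members were taken by probe position. Probes for long intergenic RNAs, whose gene name is a position, were recognised by their description. Distance was measured between probe centres, and a gene was read by its brightest probe. The members and gene lists were chosen with earlier results of these data known. Named genes are the 6 nearest tested genes on each side, those called between the genotypes, and the 3 largest changes in each direction of each comparison. Other genes were named after their values were seen. Of the called genes, 1 is counted among the members but not reported here.

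Groups came from the sample labels. Replicate numbers were taken from the titles, since for Sox7 (+/-) ES cells the source field gives number 1 for each array. Replicates of a group correlated at 0.982 to 0.996 (Pearson's r across probes), and deviations of arrays with the same number at -0.051 to 0.126, and same-numbered arrays were therefore left unpaired. Alternatives were normexp background correction (offset 50), quantile normalization, scaling by the median of detected probes or by 7 spike-in controls, other filters on dim probes, 1 probe per gene name, an intensity trend, the deposited table, blocks by replicate number or by slide, and omission of single arrays. Keeping outlier spots and fitting the larger slide alone are alternatives added after seeing the data. Scripts were tested on simulated data.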

Additional observations from a re-analysis of the deposited data

Results flagged for a closer look

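For 6 probes around Sox7, 5 of them given here, the response to Dex differed between the genotypes (limma interaction term, adjusted p under 0.05 and over 2-fold, Sox7 (-/-) minus Sox7 (+/-) on the log2 scale). The 2 probes of Tdh gave 1.04 and 1.13 (adjusted p = 0.0047 and 5.9e-04). The first of them fell under 2-fold without any 1 of 4 arrays, to 0.92 at the lowest. Stmn4 gave 2.48 (adjusted p = 0.0098), with its other probe at 0.90 (adjusted p = 0.32). The Stmn4 probe was above background on none of the Sox7 (+/-) XEN-like arrays, so its value is set against a floor and stands for no fold. Dleu7 gave -2.65 (adjusted p = 0.0039) and was well above background on the Sox7 (-/-) ES arrays only. Its call was lost with normexp background correction (-0.90) and in the deposited table (-0.69, adjusted p = 0.078). The probe of Pnma2 that fell with Dex gave -1.13 (adjusted p = 4.2e-04), both XEN-like groups being below background. This call was lost with normexp background correction (-0.83), quantile normalization (-0.65), spike-in scaling (-0.72) and the deposited table (-0.42, adjusted p = 0.26).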

How the results depend on the processing

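The counts of called members without Dex (5), with Dex (9), in the Dex response of Sox7 (+/-) (15) and Sox7 (-/-) cells (20) and in the difference of response (6) depended mainly on how dim probes were treated. Normexp background correction gave 3, 3, 12, 12 and 3, and in the deposited values the counts were 3, 3, 13, 13 and 6. Requiring signal above background on all arrays gave 1, 3, 6, 8 and 2, partly because fewer probes were tested, and 1 probe per gene name gave 12 and 3 for the last pair and, with Dex within 0.5 Mb, 1 in place of 2. With Dex, the 3 probes kept by normexp, by the deposited table and by the filter on all arrays were Clu and both probes of Tdh. The slide block gave 3 calls without Dex, of which 2 (Clu and Fam124a) were among the 5, and 8, 15, 19 and 6 in the other comparisons; the cause was not tested. The single reversal was AK040829 with Dex, -0.037 (adjusted p = 0.73) with normexp; over the named genes and member medians, 23 values lost their call, 20 moved by more than the spread and 1062 did neither, with 22 sign changes among values not called under other settings and 9 when an array was left out. Spike-in scaling moved the median of all probes with Dex from 0.00 to 0.25, and the deposited table to 0.34. Leaving out each array gave 5 to 6 calls without Dex, 6 to 12 with Dex, 15 to 19 and 20 to 22 in the Dex responses and 5 to 8 in the difference. Within 0.5 Mb it gave 0 and 2 throughout. For Sox7 it gave -6.87 to -6.62 and -8.52 to -8.14. With the replicate block the 5 counts were 5, 9, 16, 20 and 7, and none of the named genes lost its call between the genotypes by this pairing.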
